A study of Mus musculus with 6 samples.

Results

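The genes described here are the enzymes that make fatty acids from citrate, lengthen them and put double bonds into them, together with Srebf1, which encodes the transcription factor SREBP-1. The set holds 10 genes of the 16000 in the tables, chosen by symbol: Srebf1, Acly, Acaca, Fasn, Scd1, Scd2, Elovl5, Elovl6, Fads1 and Fads2. All 10 were found and all 10 passed the filter on low counts. RNA was sequenced from NIH3T3, a long-established fibroblast line of mouse embryos, in 3 libraries labelled WT and 3 labelled Rai16 KO. Cells of both groups were held without serum, so starvation is shared, and genotype is the only difference that the labels give. The labels give neither the lesion nor the number of clones, nor whether libraries came from separate cultures, so p-values cover only library-to-library spread, part or all of which may be technical.

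In the textbook pathway, ATP citrate lyase (Acly) releases acetyl-CoA from citrate, acetyl-CoA carboxylase (Acaca) turns it into malonyl-CoA, and fatty acid synthase (Fasn) builds palmitate from both. Elovl6 lengthens palmitate, and the stearoyl-CoA desaturases Scd1 and Scd2 insert a double bond to give oleate and palmitoleate. Fads2, Elovl5 and Fads1 act in turn on dietary polyunsaturated fatty acids to make arachidonate and related chains. SREBP-1 is known as the main transcriptional activator of these enzymes. It is held in the endoplasmic reticulum by Scap and the Insig proteins and released by proteolysis when sterols are low.

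The textbook inputs to these promoters are SREBP, NF-Y and Sp1, so promoter sequence was searched for motifs. The motifs were not tested against the fold changes. RefSeq promoter windows on GRCm38.p6 were matched by symbol for 7 of the 10 genes (9 windows, 3 of them for Srebf1), and Scd1, Scd2 and Fads1 had no entry. Shown are the 250 bases before the annotated start of the 3 matched genes with the largest fold changes (Fads2, Fasn and Acly) and of Elovl5, the matched gene with the smallest. Capitals mark letters that match a searched motif on either strand. The Fads2 window is chr19:10101504-10101753 (minus strand), that of Fasn chr11:120824548-120824797 (minus strand), that of Acly chr11:100528001-100528250 (minus strand) and that of Elovl5 chr9:77917115-77917364 (plus strand).
Fads2: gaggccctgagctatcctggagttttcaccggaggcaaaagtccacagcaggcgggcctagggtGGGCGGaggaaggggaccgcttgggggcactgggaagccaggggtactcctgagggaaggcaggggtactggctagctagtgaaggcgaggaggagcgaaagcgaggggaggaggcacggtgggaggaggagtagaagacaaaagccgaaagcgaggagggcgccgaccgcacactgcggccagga
Fasn: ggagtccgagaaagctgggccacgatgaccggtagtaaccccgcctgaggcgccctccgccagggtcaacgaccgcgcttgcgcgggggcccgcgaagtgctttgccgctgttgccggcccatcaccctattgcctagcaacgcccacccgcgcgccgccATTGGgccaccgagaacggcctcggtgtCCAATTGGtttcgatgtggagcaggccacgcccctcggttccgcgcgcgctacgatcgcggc
Acly: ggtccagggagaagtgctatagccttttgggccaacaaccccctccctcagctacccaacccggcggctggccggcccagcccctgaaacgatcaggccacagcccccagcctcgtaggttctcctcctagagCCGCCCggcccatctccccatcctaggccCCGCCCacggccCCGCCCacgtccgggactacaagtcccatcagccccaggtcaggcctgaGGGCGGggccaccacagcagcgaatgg
Elovl5: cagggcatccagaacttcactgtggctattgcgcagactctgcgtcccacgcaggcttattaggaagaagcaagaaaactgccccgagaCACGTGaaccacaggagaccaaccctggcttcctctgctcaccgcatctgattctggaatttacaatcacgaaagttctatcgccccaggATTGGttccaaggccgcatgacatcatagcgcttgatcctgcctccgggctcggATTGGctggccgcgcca

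The motifs were the sterol regulatory element core TCACNCCAC, the E-box CACGTG, the NF-Y box CCAAT and the Sp1 box GGGCGG, each searched on both strands. Fasn held 3 NF-Y boxes, of which the pair nearest the start overlapped within CCAATTGG. Acly held 4 Sp1 boxes and no NF-Y box, Fads2 held 1 Sp1 box, and Elovl5 held 2 NF-Y boxes and 1 E-box. No match to any of the 4 motifs was found in the windows of Elovl6 and Acaca. The sterol regulatory element core was in 0 of the 9 windows. Among 32851 windows of the same length in the RefSeq table, that core was in 1.05%, the E-box in 6.02%, the NF-Y box in 33.9% and the Sp1 box in 32.7%. NF-Y and Sp1 boxes were thus common letters in promoters at large, and each was in 4 of the 9 windows. A match describes these letters only, and the windows do not cover sites farther away.

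Total counts ran from 16741607 to 18368760 per library. Knockout replicate 2 stood apart: its counts differed from those of knockout replicates 1 and 3 by a chi-square of 29.3 and 27.2 per degree of freedom, against 1.72 between replicates 1 and 3 and 1.91 to 2.27 among wild-type libraries. Some results below are therefore also given without it, and values given only with it can also move when it is left out. The targeted gene, listed as Fam160b2, had 440, 375 and 411 counts in wild-type replicates 1, 2 and 3 and 410, 394 and 390 in knockout replicates 1, 2 and 3. Its log2 fold change was −0.12 ± 0.075 (SE; adjusted p = 0.184, edgeR's quasi-likelihood test). The transcript level thus does not tell the groups apart, which rest on their labels, and whether the gene carries a lesion was not tested. The fibroblast markers were all present, with a summed level of 24232 to 24776 CPM (counts scaled by the library total) in wild type and 19945 to 22939 CPM in knockout. Fn1, the most abundant fibroblast marker, went from 13923 to 9220 CPM. By edgeR's test, 5 of the 10 fibroblast markers were called higher and 3 lower, beside 30.5% and 29.2% of all genes. The lower sum in knockout thus does not stand for each marker on the list. Of 9 adipocyte markers in the tables, 6 (among them Adipoq, Plin1 and Pparg) stayed below 1 CPM in every library. The adipocyte list summed to 30.2 to 34.0 in wild type and 25.9 to 29.0 in knockout, mostly Lpl. The 2 adipocyte markers that were tested were both called lower, beside 29.2% of all genes. Fabp4, also on this list but not tested, had 9 counts in the wild-type libraries and 48 in the knockout libraries. Epithelial markers summed to 2.03 to 2.52 CPM in wild type and 4.68 to 5.94 in knockout, endothelial markers to 2.29 to 2.81 and 4.30 to 6.60, and leukocyte markers to 3.94 to 4.18 and 5.11 to 6.11. The hepatocyte list summed to at most 0.286 CPM in any library. The part of these low levels in the results was not tested.

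Genes of synthesis, elongation and desaturation were among those higher in knockout, and the largest rise was 2.01-fold (Fads2). By edgeR's quasi-likelihood test with Benjamini-Hochberg adjustment over 11972 genes, 6 of the 10 genes rose: Fads2, Fasn, Acly, Elovl6, Scd2 and Fads1. The other 4 (Acaca, Scd1, Srebf1 and Elovl5) did not pass, and 0 fell. Of all genes tested, 30.5% were called higher and 29.2% lower by the same test. At an unadjusted p under 0.05, 8 of the 10 were higher and 0 lower. The share of all genes at that threshold was not counted. It cannot be below 30.5% higher, so these 8 have no background to stand beside. DESeq2 and limma each called 7 of the 10 higher and 0 lower. Over all genes DESeq2 called 3396 higher and 3440 lower, and limma on log2(FPKM + 1) called 3684 higher and 3384 lower. The median log2 fold change of the 10 genes was 0.41, against 0.00 over all genes tested. When knockout replicate 2 was left out, 9 of 10 were called higher, beside 36.0% of all genes. Levels come from bulk RNA, in which a change per cell and a change in the share of expressing cells cannot be told apart.

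**Figure D1:**
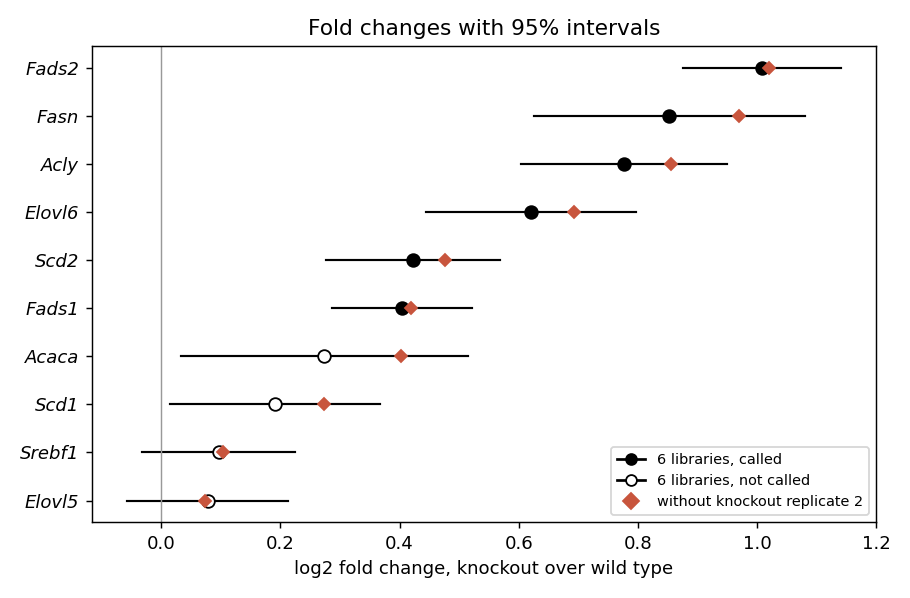
Log2 fold change of each gene, knockout over wild type, with its 95% interval (circles, filled where the adjusted p is under 0.05), and the value without knockout replicate 2 (diamonds). All 10 circles lie above 0, from 0.08 for Elovl5 to 1.01 for Fads2, and the diamonds of Acaca and Fasn lie farthest from their circles.

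Synthesis of acetyl-CoA and palmitate was represented by Acly, Acaca and Fasn. Levels below are CPM after TMM scaling of the library totals, in the order of replicates 1, 2 and 3. Acly had 308, 316 and 327 CPM in wild type and 577, 483 and 569 CPM in knockout. Every knockout library thus lay above every wild-type library, with replicate 2 the lowest of the knockout. Acly rose by 0.78 ± 0.076 on the log2 scale (SE; 1.71-fold, adjusted p = 3.54e-05), from 317 ± 9.81 to 543 ± 52.0 CPM (SD, n = 3 each).

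Fasn followed the same order. It had 277, 285 and 300.2 CPM in wild type and 568, 433 and 557 CPM in knockout, without overlap. Its log2 fold change was 0.85 ± 0.10 (SE; 1.81-fold, adjusted p = 1.06e-04), and 0.97 without knockout replicate 2. The mean went from 287 ± 11.8 to 519 ± 75.0 CPM (SD, n = 3 each).

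Acaca, the enzyme between these steps, had 118, 122 and 117 CPM in wild type and 156, 117 and 158 CPM in knockout. Knockout replicates 1 and 3 lay above all wild-type libraries, and replicate 2 lay within the wild-type range. The log2 fold change of 0.27 ± 0.11 (SE) had an adjusted p of 0.0506 and a 95% interval from 0.03 to 0.51. Without knockout replicate 2 it was 0.40 (adjusted p = 8.32e-15), and over all 12 alternatives the adjusted p ran from 8.32e-15 to 0.164. Of the windows of 100 bases in the longest Acaca transcript in GENCODE M21, 42.8% also occurred in the processed pseudogene Gm5182, so the count of Acaca is uncertain, since no source used here says how reads with more than 1 match were handled.

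Chain elongation split between the pair of elongases. Elovl6, which acts on palmitate, had 47.5, 43.0 and 45.0 CPM in wild type and 72.2, 62.4 and 73.8 CPM in knockout. It rose by 0.62 ± 0.078 on the log2 scale (SE; 1.54-fold, adjusted p = 1.57e-04), with no overlap of the groups. Elovl5, which lengthens polyunsaturated chains, had 74.9, 70.0 and 76.9 CPM in wild type and 79.8, 78.6 and 75.6 CPM in knockout. Its groups overlapped, and its log2 fold change of 0.08 ± 0.060 (SE; adjusted p = 0.286) had a 95% interval from −0.06 to 0.21.

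Of the stearoyl-CoA desaturases, Scd2 was by far the more abundant and the one that rose. Scd2 had 1205, 1250.0 and 1273 CPM in wild type and 1726, 1541 and 1729 CPM in knockout, and its groups did not overlap. Its log2 fold change was 0.42 ± 0.065 (SE; 1.34-fold, adjusted p = 4.95e-04). Scd1 had 234, 230.5 and 239 CPM in wild type and 278, 236 and 289 CPM in knockout. As for Acaca, knockout replicates 1 and 3 of Scd1 lay above wild type and replicate 2 lay within its range.

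The log2 fold change of Scd1 was 0.19 ± 0.078 (SE; adjusted p = 0.0599), with a 95% interval from 0.01 to 0.37. Leaving out knockout replicate 2 gave 0.27 (adjusted p = 3.25e-11), and over all alternatives the adjusted p ran from 3.25e-11 to 0.201. The neighbouring relative Scd3 was at 2 to 5 counts per library and was not tested. Of the windows of 100 bases, 2.66% in the Scd1 transcript and 0.896% in that of Scd2 occurred in another gene, mostly in each other or in Scd3.

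The fatty acid desaturases of the polyunsaturated branch both rose, with knockout replicates that varied less than those of the other called genes. Fads2, which makes the first desaturation in this branch, had 124, 122 and 133 CPM in wild type and 259.9, 250.4 and 253 CPM in knockout. All knockout libraries lay near 2 times the wild-type mean, and the fitted rise was 1.01 ± 0.058 on the log2 scale (SE; 2.01-fold, adjusted p = 1.58e-06). Fads1, which makes the last desaturation, had 259.9, 253 and 260.0 CPM in wild type and 344, 335 and 343 CPM in knockout. It rose by 0.40 ± 0.052 (SE; 1.32-fold, adjusted p = 1.71e-04), again with no overlap.

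Srebf1 itself moved little. It had 80.7, 82.6 and 87.4 CPM in wild type and 88.5, 88.5 and 91.0 CPM in knockout, so that the groups did not overlap but came within about 1 CPM of each other. The log2 fold change was 0.10 ± 0.056 (SE; adjusted p = 0.172), with a 95% interval from −0.03 to 0.22. Leaving out knockout replicate 2 gave the same value to 2 decimals, 0.10, and the adjusted p was 0.0357 (0.0357 to 0.427 over all alternatives). The test reads the transcript and not the cleaved, active protein. In GENCODE M21, 1.93% of the Srebf1 exon bases overlap exons of Rai1 (not the targeted gene) on the other strand, and the strand setting of the counting is not known. In all, the groups did not overlap, with knockout higher, for 7 of the 10 genes, against 34.1% of all genes tested.

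**Figure D2:**
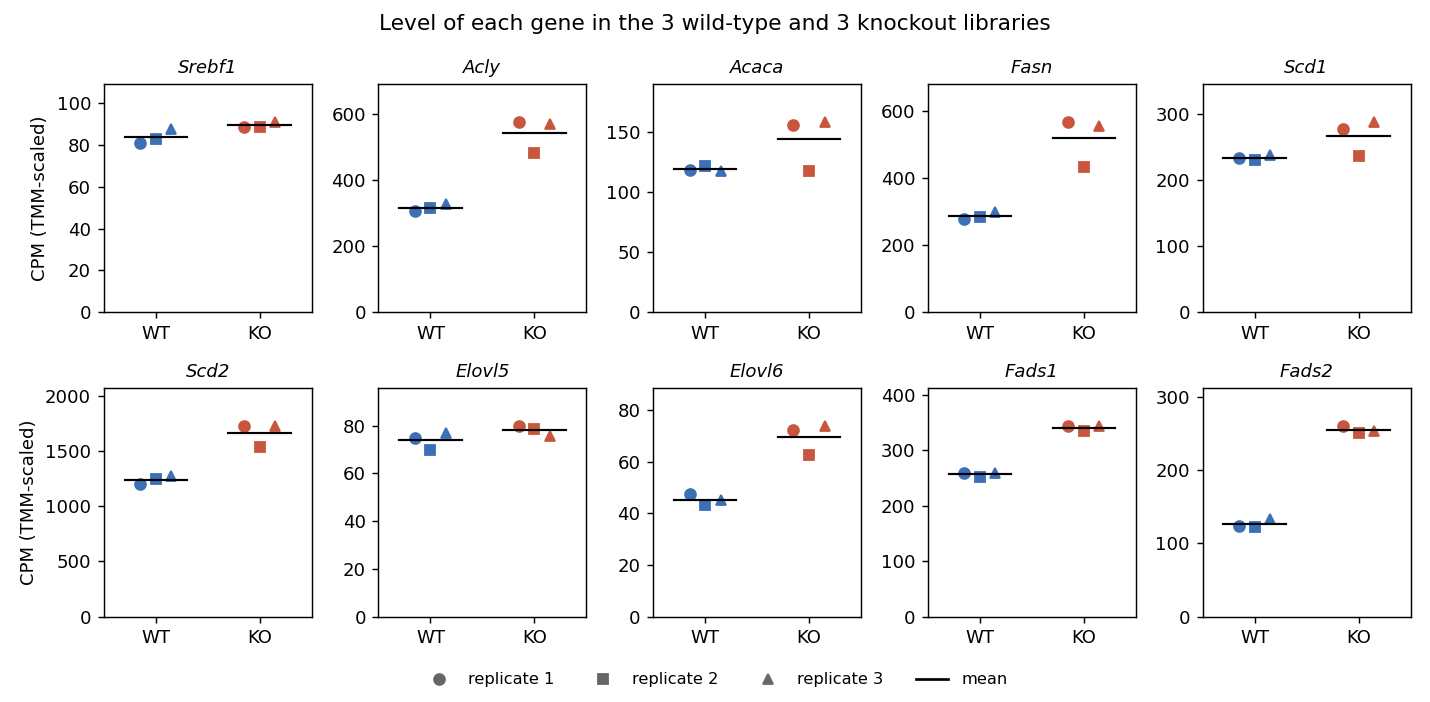
CPM of each gene (vertical axes, each starting at 0) in 3 wild-type (WT, blue) and 3 knockout (KO, red) libraries, with symbols for the replicate number and a line at the mean. Knockout replicate 2 (red square) lies more than 10% below the mean of the other knockout libraries for Acly, Acaca, Fasn, Scd1, Scd2 and Elovl6. It lies within 3% of that mean for Fads1, Fads2, Srebf1 and Elovl5, though lowest for Fads1 and Fads2.

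The 10 genes divided by how knockout replicate 2 lay against the other knockout libraries. For 6 genes it was more than 10% below their mean: 25.3% below for Acaca, 23.0% for Fasn, 16.5% for Scd1, 15.7% for Acly, 14.5% for Elovl6 and 10.8% for Scd2. These are the genes of the route from citrate to monounsaturated fatty acids. For Fads1, Fads2, Srebf1 and Elovl5 the same library lay within 3% of the mean of the others. It was still the lowest knockout library for Fads1 and Fads2, and so for 8 of the 10 genes. The coefficient of variation among knockout libraries was accordingly 15.5% for Acaca and 14.0% for Fasn, but 1.10% for Fads1 and 1.83% for Fads2. This division was made after the values were seen, rests on 1 library and was not tested.

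Levels between genes were compared per length, in FPKM. In wild type the order from highest to lowest was Scd2, Fads1, Scd1, Fads2, Acly, Fasn, Elovl5, Srebf1, Acaca and Elovl6, and no neighbours in it overlapped in their ranges. Scd2 stood at 227 ± 6.41 FPKM and Elovl6 at 7.56 ± 0.369 FPKM (SD, n = 3 each). In knockout, Fads2 (87.8 ± 1.61 FPKM) and Acly (69.4 ± 6.31 FPKM) both stood above Scd1 (55.5 ± 5.38 FPKM). There the ranges of Scd1 and Fasn overlapped, as did those of Acaca and Elovl6. Together the 10 genes took 0.278% ± 0.00667 of all counts in wild type and 0.398% ± 0.0280 in knockout (SD, n = 3 each).

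**Figure D3:**
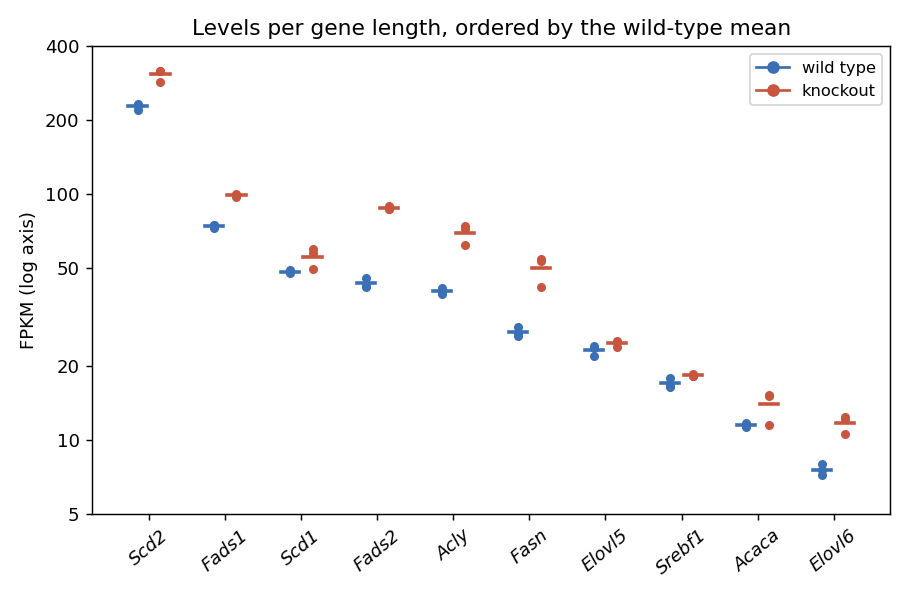
FPKM of each gene on a log axis, ordered by the wild-type mean, with points for libraries and bars for group means (wild type blue, knockout red). Scd2 is the highest in both groups (227 and 306 FPKM), and Fads2 moves from below Scd1 in wild type to above it in knockout.

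Ratios of related enzymes were computed in each library. The log2 ratio of Fads1 to Fads2 was 0.82, 0.79 and 0.71 in wild-type replicates 1, 2 and 3 and 0.15, 0.16 and 0.19 in knockout, so the excess of Fads1 went from 1.71-fold to 1.12-fold. The log2 ratio of Elovl6 to Elovl5 was −1.57, −1.61 and −1.68 in wild type and −1.05, −1.24 and −0.94 in knockout. That of Scd1 to Scd2 was −2.19, −2.27 and −2.24 in wild type and −2.46, −2.53 and −2.41 in knockout. In each of these 3 ratios the groups did not overlap. The differences, knockout minus wild type, were −0.61 for Fads1 over Fads2, 0.54 for Elovl6 over Elovl5 and −0.23 for Scd1 over Scd2. Each had an exact two-sided permutation p of 0.1, the smallest that 3 libraries against 3 allow, and 0.1 after Benjamini-Hochberg adjustment over the 3 ratios, so none could pass 0.05.

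**Figure D4:**
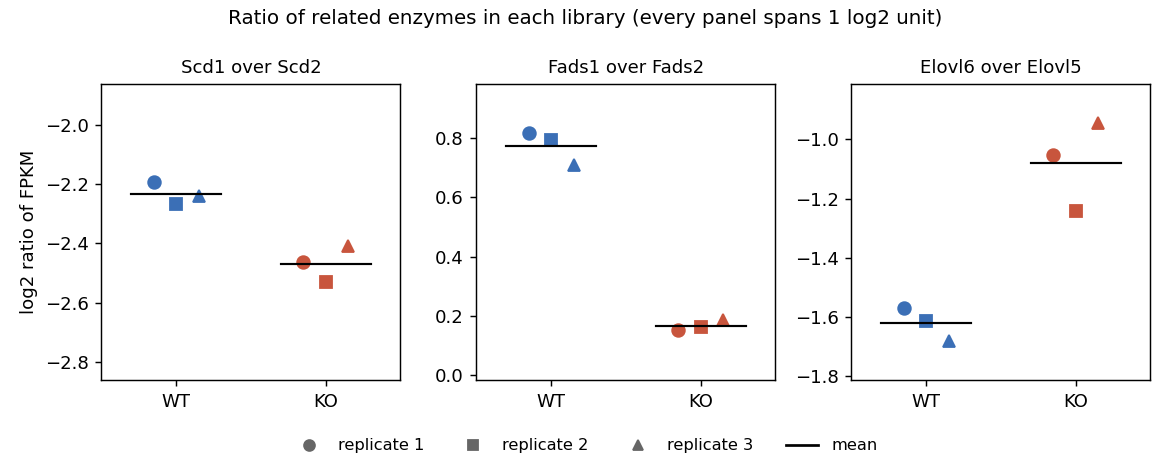
Log2 ratio of FPKM for 3 pairs of related enzymes in each library, with symbols for the replicate number and a line at the group mean, every panel spanning 1 log2 unit. The groups are apart in all 3 panels, most in that of Fads1 over Fads2 (0.77 in wild type and 0.17 in knockout).

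Genes that lie beside each other can shift together, so the 10 tested genes on each side of each gene of the set were compared, placed by gene number in RefSeq. Acly, Acaca, Fasn and Srebf1 lie on chromosome 11, Scd1, Scd2, Fads1 and Fads2 on chromosome 19, Elovl5 on chromosome 9 and Elovl6 on chromosome 3. The neighbours of Srebf1 had a median log2 fold change of 0.29 and 14 of 20 exceeded Srebf1. Around Fasn the median was 0.26 with 12 of 20 higher and 2 lower, and around Acly 0.20 with 10 higher and 2 lower. Of all genes tested, 30.5% were called higher and 29.2% lower. With 5 on each side the medians around Fasn and Acly were 0.40 and 0.31. Only 2 of 20 neighbours exceeded Fasn, and 2 of 20 exceeded Acly.

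Around Elovl6 and Elovl5 the neighbours leaned the other way. Counts out of 20 neighbours in each window stand beside 30.5% of all genes called higher and 29.2% lower. The Elovl6 window had a median of −0.09 (0.08 with 20 on each side) with 3 genes higher and 8 lower, while Elovl6 rose. The Elovl5 window had a median of −0.21 with 2 genes higher and 9 lower. Fads1 and Fads2 are neighbours, and their windows had a median of 0.20, 9 higher and 3 lower. Windows of Scd1 and Scd2, which also hold each other, had medians of 0.19 and 0.21, and that of Acaca had 0.045 (0.0097 with 20 on each side). The part of these neighbourhoods in the fold changes was not tested.

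Genes that supply carbon and NADPH to the pathway were higher in most cases. Of 12 tested, 8 rose and 3 fell (66.7% and 25.0%, beside 30.5% and 29.2% of all genes), with a median log2 fold change of 0.33. Slc25a1, the mitochondrial citrate carrier, rose by 0.76 ± 0.079 on the log2 scale (SE; adjusted p = 4.74e-05), from 81.7 ± 3.26 to 139 ± 13.8 CPM. Acss2, which makes acetyl-CoA from acetate, rose by 0.79 ± 0.14 (adjusted p = 0.00127), the pentose phosphate enzyme gene Tkt by 0.59 ± 0.058 (adjusted p = 3.60e-05), and pyruvate carboxylase (Pcx) by 0.49 ± 0.074 (adjusted p = 4.45e-04). The members that fell were the NADPH producers Me1 (−0.32 ± 0.054), Idh1 (−0.34 ± 0.058) and Pgd (−0.39 ± 0.062), while G6pdx, another NADPH producer, rose (0.22 ± 0.056, adjusted p = 0.00845). These 4 were named after their values were seen.

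Partners of elongation and desaturation counted 7 rises and 3 falls among 14 tested (beside 30.5% and 29.2% of all genes), with a median of 0.22. There were 5 falls without knockout replicate 2, a setting in which 4236 of 12082 genes were called lower. Tecr, which completes each elongation cycle, rose by 0.72 ± 0.076 on the log2 scale (SE; adjusted p = 5.80e-05), and Elovl1, an elongase of long saturated chains, by 0.32 ± 0.055 (adjusted p = 9.57e-04). The cytochrome b5 genes, whose products pass electrons to desaturases, went apart. Cyb5b rose by 0.66 ± 0.056 (adjusted p = 1.52e-05), from 204 ± 4.68 to 321 ± 11.9 CPM, and Cyb5a had a log2 fold change of −0.75 ± 0.083 (adjusted p = 7.08e-05), from 181 ± 4.25 to 107 ± 12.5 CPM.

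The list of mitochondrial and other fatty acid synthesis genes counted 3 rises and 3 falls among 9 tested, with a median of 0.015. Each is 33.3%, close to the shares of all genes (30.5% and 29.2%). The rises were 0 without wild-type replicate 1, 1 without wild-type replicate 2 and 0 without wild-type replicate 3. In these settings 3091, 3024 and 3066 of all genes were called higher, against 3646 with all libraries. Mid1ip1, whose product promotes polymerisation of acetyl-CoA carboxylase, fell from 53.8 ± 1.41 to 15.3 ± 1.05 CPM, or −1.81 ± 0.072 on the log2 scale (SE; adjusted p = 1.81e-07). Oxsm, the mitochondrial ketoacyl synthase, had −0.51 ± 0.14 (adjusted p = 0.0103), and Aasdhppt, which attaches the phosphopantetheine arm that fatty acid synthase needs, had −0.45 ± 0.10 (adjusted p = 0.00456). Acacb, the carboxylase isoform at mitochondria, rose by 0.49 ± 0.15 (adjusted p = 0.0197). It did not pass without wild-type replicate 1, wild-type replicate 3 or knockout replicate 1, where its log2 fold changes were 0.43, 0.41 and 0.42 (adjusted p from 0.00449 to 0.0812 over all alternatives).

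Among 21 tested genes of transcriptional and AMPK control, 4 rose and 8 fell, with a median of −0.13, beside 30.5% of all genes called higher and 29.2% lower. There were 12 falls without knockout replicate 2, where 4236 of 12082 genes were called lower. Insig1, which retains the SREBP-Scap complex and is itself a known SREBP target, rose by 0.81 ± 0.065 on the log2 scale (SE; adjusted p = 1.04e-05), from 82.4 ± 5.62 to 145 ± 3.23 CPM. Its relative Insig2 had −0.54 ± 0.069 (adjusted p = 1.74e-04), and Scap was at 118 ± 3.71 and 111 ± 4.17 CPM (log2 fold change −0.08, adjusted p = 0.243). Srebf2, for the cholesterol-directed SREBP, rose by 0.21 ± 0.061 (adjusted p = 0.0139). It did not pass without wild-type replicate 1 or knockout replicate 3, where it was 0.19 each (adjusted p from 4.59e-11 to 0.0721 over all alternatives). Ppargc1b, a coactivator of SREBP-1, had −1.39 ± 0.17 (adjusted p = 1.27e-04), Sp1 −0.58 ± 0.15 (adjusted p = 0.00768), and Mlx, the partner of the carbohydrate-responsive factor, rose by 0.57 ± 0.099 (adjusted p = 9.94e-04). Without knockout replicate 2 these log2 fold changes were −1.19 for Ppargc1b, −0.40 for Sp1 and 0.46 for Mlx.

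Counts for genes that use fatty acids stand beside 30.5% of all genes called higher and 29.2% lower. Activation, transport and binding counted 6 rises and 4 falls among 14 (median 0.09), with higher Fabp5, a fatty acid binding protein (log2 fold change 0.91 ± 0.10, SE). Of the acyl-CoA thioesterase genes, Acot7 was higher (0.73 ± 0.072) and Acot2 (−1.79 ± 0.096) and Acot1 (−0.70 ± 0.088) were lower. Glycerolipid synthesis and storage counted 7 rises and 5 falls among 20 (median 0.06), with higher Lpin1, a phosphatidate phosphatase (0.88 ± 0.085), and the lipid droplet protein gene Plin2 (0.41 ± 0.065). Lpin2 (−0.66 ± 0.085) and the triglyceride-forming Dgat2 (−0.99 ± 0.17) were lower. All 8 passed in edgeR's test, with adjusted p between 9.33e-07 and 9.45e-04.

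Genes of fatty acid oxidation counted 13 rises and 4 falls among 22 tested, with a median log2 fold change of 0.31. The falls were 18.2% of those tested, beside 29.2% of all genes. There were 7 falls without knockout replicate 2, where 4236 of 12082 genes were called lower. Decr1, which processes unsaturated chains, rose by 0.79 ± 0.085 on the log2 scale (SE), the peroxisomal thiolase gene Acaa1a by 0.56 ± 0.072 and Etfdh, which passes electrons to the respiratory chain, by 0.53 ± 0.069, while the mitochondrial thiolase gene Acaa2 had −0.53 ± 0.073 (adjusted p from 6.28e-05 to 2.62e-04). The share of oxidation genes called higher (59.1%) was thus close to that of the 10 synthesis and desaturation genes (60.0%), both beside 30.5% of all genes, and the lists were not tested against each other.

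**Figure D5:**
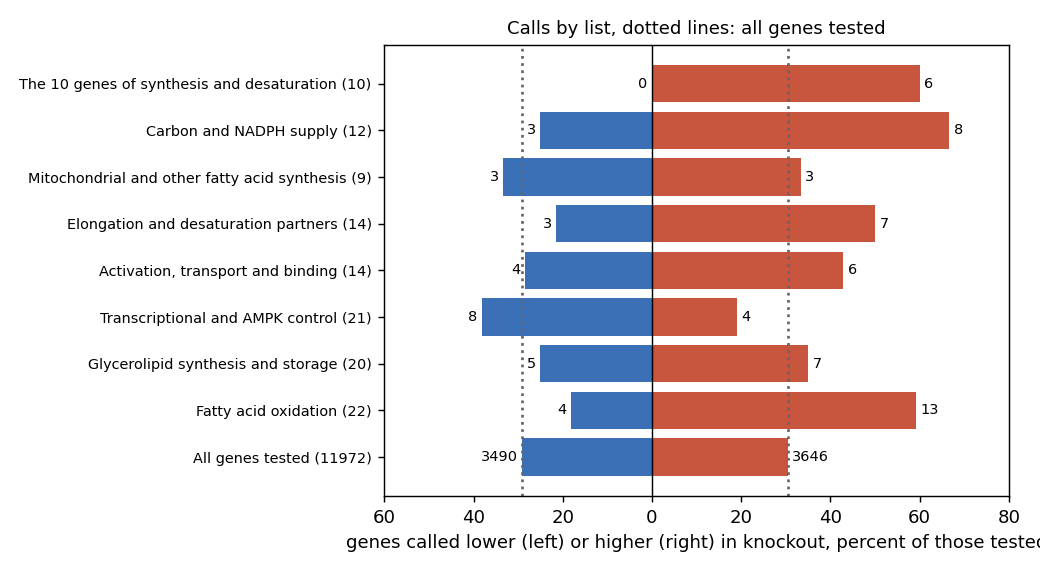
Share of tested genes called higher (right, red) or lower (left, blue) in knockout for the 10 genes and for 7 lists of related genes, with the number called beside each bar, the number tested in brackets and dotted lines at the shares of all genes tested. The 10 genes have 6 calls higher and 0 lower, and regulators have 4 higher and 8 lower.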

How the data were processed

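Messenger RNA of 3 wild-type and 3 Rai16 knockout libraries was measured. The deposited tables hold raw read counts per gene and the authors' FPKM values. The submitters' processing notes name build GRCm39 and the tools HISAT2, HTSeq, Cufflinks, DESeq and Trimmomatic; their versions, the annotation and the strand setting are not stated there. The deposited FPKM equalled the count over library total and a single length per gene within 8.04e-05%. Knockout was compared with wild type by the quasi-likelihood test of edgeR 4.0.16 in R 4.3.3, after filterByExpr and TMM scaling, and genes were called at an adjusted p under 0.05. The standard error is the absolute log2 fold change over the square root of F. Alternatives were DESeq2 1.42.0, RLE scaling, no filter, limma 3.58.1 on log2(FPKM + 0.1) and log2(FPKM + 1), a replicate block and leaving out each library. The fit was tested on simulated data. The 10 genes and 7 lists (112 of 128 entries tested) were chosen with earlier results of these data known. Named from each list were up to 4 called genes with the largest log2 fold change and at least 5 CPM, and always Scap, Insig1, Insig2, Srebf2 and Scd3. Promoters, exons and gene order come from GRCm38 annotation. A table column of another sample was not found (0 columns).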

Additional observations from a re-analysis of the deposited data

How the results depend on the processing

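Of the fold changes of the 10 genes, all stayed above 0 in the 12 alternatives, and the 6 calls passed in each of them. The count of genes called higher was 6 to 9 when libraries were left out, 7 in DESeq2, in limma on log2(FPKM + 0.1) and log2(FPKM + 1) and without the filter, and 6 with RLE scaling. Acaca passed in DESeq2 (0.26, adjusted p = 0.0464) and without the filter (0.28, adjusted p = 0.0437), and Scd1 in limma (0.20, adjusted p = 0.0491, and 0.19, adjusted p = 0.0492). Leaving out libraries gave 0 to 3 rises for mitochondrial and other fatty acid synthesis, 3 to 5 falls for elongation and desaturation partners and 3 to 7 falls for fatty acid oxidation. Calls over all genes also moved, from 3024 to 4350 higher and from 3023 to 4236 lower. Those called higher were 3563 with RLE scaling, 3712 without the filter and 3688 in limma on log2(FPKM + 0.1). The labels do not say whether replicate numbers pair the libraries. Deviations of same-numbered libraries from their group means correlated at −0.07, −0.09 and 0.02. These values cannot exclude a pairing, since knockout replicate 2 stood apart from its group. With the replicate block 6 of the 10 genes were called higher and 0 lower, beside 3371 of all genes higher and 3321 lower. The median log2 fold change of the 10 genes kept its direction. Without knockout replicate 2 the remaining spread is that of replicates 1 and 3, which differ little, and adjusted p became very small. With 3 libraries a group, the exact test of the ratios could not pass.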

Other observations

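A few genes of the related lists changed more than any of the 10 genes but lay under 5 CPM on average, and they are named here after their values were seen. Agpat2, an acyltransferase of glycerolipid synthesis, averaged 5.96 CPM in wild type against 0.345 CPM in knockout (log2 fold change −4.07, adjusted p = 1.67e-05, edgeR). Prkaa2, a catalytic subunit gene of AMPK, had 105 counts in the wild-type libraries and 4 in the knockout libraries (log2 fold change −4.67, adjusted p = 1.61e-04). Hacd4, a dehydratase of the elongation cycle, went from 0.702 to 3.53 CPM (log2 fold change 2.32, adjusted p = 6.80e-05). Ehhadh, on the list of fatty acid oxidation, went from 0.445 to 1.23 CPM (log2 fold change 1.445, adjusted p = 0.0203, edgeR).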
